A study of Mus musculus with 24 samples.

Results

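Epithelial cells taken from the colon of untreated control mice were compared with pieces of the whole colon wall of untreated control mice, using 8 of the 24 RNA sequencing libraries of the series. The libraries were chosen by their titles, which name 4 replicates of epithelial cells and 4 replicates of water-treated colon. All 8 came from C57Bl/6 mice of the VilCre genotype, so the wall pieces carried the same Cre transgene as the epithelial cells. VilCre places Cre recombinase under the villin promoter, which drives it in gut epithelium. The wall pieces were 10 mm long and were cut about 10 to 20 mm above the rectum. The sources used here do not give the stretch of colon the epithelial cells came from, how they were isolated, or the age and sex of the animals, and they do not say whether replicates were separate animals. The p-values below therefore measure the spread between these libraries, which may be partly technical.

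The inner surface of the colon is a single sheet of epithelium folded into crypts. Stem cells at the crypt base feed a zone of dividing cells, from which absorptive colonocytes, mucus-secreting goblet cells, hormone-secreting enteroendocrine cells and chemosensory tuft cells arise. The wall adds connective tissue with fibroblasts, vessels and immune cells, a thin muscle layer beneath the mucosa, thick outer muscle coats, and the neurons and glia of the enteric nervous system. The epithelium and the tissue beneath it exchange Hedgehog, Wnt, BMP and EGF family signals.

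Gene levels are given in CPM, the deposited RSEM expected counts summed per gene and scaled by library size and a TMM factor, a correction that assumes most genes are alike. Values of 4 libraries are given in the order of replicates 1 to 4. Differences were fitted with edgeR's quasi-likelihood test on the rounded counts of all 14525 genes that passed its filter on low counts, and a gene was called at a Benjamini-Hochberg adjusted p below 0.05. Fold changes are log2 of epithelial cells over colon wall, with the standard error of the fit. The epithelial libraries held 6683803 to 14291452 counts and the wall libraries 22823697 to 105029761, so a gene with low counts was measured less precisely in epithelial cells. Where no read of a gene was seen in the 4 epithelial libraries, its fold is a lower bound against a floor of 3 counts over that group, and the bound covers counting error only. In whole tissue, fewer cells of a type and less RNA per cell cannot be told apart.

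Before the results, 1 library needs a description. Epithelial replicate 3 stood apart from replicates 1, 2 and 4: its log2 CPM correlated with theirs at 0.933 to 0.940 over genes, against 0.973 to 0.975 among those 3. In 291 of 14525 genes, 2.0%, it lay more than 4-fold above or below all the others after 0.5 CPM was added. In no other library of either group did the share exceed 0.23%. Genes of absorptive colonocytes summed to 31178 CPM in it, against 3831 to 4838 CPM in the other epithelial libraries. Wall replicate 4 also differed in its file name, which starts with another number than those of the other wall replicates; the meaning of that number is not given. The fits of 231 named genes were repeated without each library, and 29 of them lost a call in at least 1 such fit.

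In epithelial cells 2304 genes were higher than in colon wall, 15.9% of those tested, and 3160 were lower, 21.8%. Both shares are the background for the counts of list members below. By more than 1 log2 unit, 983 genes were higher (6.77%) and 2525 were lower (17.4%), so most differences of that size were toward the wall. The median log2 fold change over all genes tested was -0.01. The 2 groups did not overlap in 5342 genes, 36.8% of those tested. Without epithelial replicate 3 and wall replicate 4, 3747 genes were higher and 4523 were lower, a comparison chosen after seeing the data. On simulated data with 200 changed genes among 14293 of this comparison, the self-test recovered 36% of 2-fold and 89% of 4-fold changes. In the data 5464 genes were called, and recovery with that many changed genes was not tested. The share of differences near 2-fold that was missed in the data is therefore not known.

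Genes were ranked by fitted fold among those called, with at least 10 CPM in the higher group and groups that did not overlap. The 12 with the largest fold toward epithelial cells were Abca12, Osta, Pla2g4c, Reg3b, Ugt2b5, 1110032A04Rik, Hapln4, Retnlb, Isx, H2-T3, Kcnh3 and Apol10a. Osta is the older name of Slc51a, a subunit of the bile acid exporter on the basal side of enterocytes, and 1110032A04Rik is the older name of Sptssb, a subunit of the enzyme that starts sphingolipid synthesis. Pla2g4c, a phospholipase, had 399.6, 678, 423 and 458 CPM in epithelial cells, against 0.211, 0.299, 0.285 and 0.857 CPM in colon wall (log2 fold change 10.10 ± 0.53, adjusted p = 2.32e-06; 10.84 without wall replicate 4). Groups that did not overlap were a condition of the ranking, and in Pla2g4c the gap between the groups was wide. Reg3b, an antibacterial lectin, had 4.4, 24.3, 102 and 8.66 CPM in epithelial cells, against 0, 0, 0.103 and 0 CPM in wall (log2 fold change 9.98 ± 1.41, adjusted p = 0.000469; 13.22 without wall replicate 3, which held every wall read of it). Isx, a homeobox factor of the intestine that controls vitamin A uptake, had 22.4, 31.7, 138 and 40.1 CPM in epithelial cells and 0.193, 0.171, 0.205 and 0.201 CPM in wall (log2 fold change 8.19 ± 0.70, adjusted p = 2.9e-05). In 7 of these 12 genes, epithelial replicate 3 was an outlier high above the other 3, and without it the log2 fold changes of Osta, Reg3b and Isx were 7.74, 8.51 and 7.29, with 10.39 for Osta over all 8 libraries. Abca12, a lipid transporter, had 5.87, 10.4, 100.1 and 11 CPM in epithelial cells and 1 count in all wall libraries together. Its fitted log2 fold change was 12.25, and 10.50 without epithelial replicate 3, which held most of the signal.

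Under the same rule, the 12 genes with the largest fitted fold toward the wall were Ckm, Cfd, Hoxd12, Glycam1, Ptprz1, Htr3a, Pln, 6330403A02Rik, Igfbp2, 2310079G19Rik, Fxyd4 and Hoxd13. No read of the first 7 was seen in any epithelial library. Ckm, the muscle creatine kinase, had 28.8, 16.6, 34.6 and 36.3 CPM in wall and was at least 423-fold lower in epithelial cells. Htr3a, a serotonin receptor subunit of enteric neurons, had 11.7, 15.5, 14.2 and 7.4 CPM in wall and was at least 177-fold lower in epithelial cells. Both were present in all 4 wall libraries. Cfd, the adipocyte protease adipsin, was less even, at 4.94, 81.8, 1.47 and 7.64 CPM in wall, with wall replicate 2 far above the rest. Its bound of at least 349-fold lower in epithelial cells rests largely on that library. Fxyd4 regulates the sodium pump of distal colon epithelium and had 0.173, 0, 0.159 and 0.275 CPM in epithelial cells, against 132, 43.1, 128 and 82.2 CPM in wall (log2 fold change -9.41 ± 0.59, adjusted p = 5.17e-06). Although known from epithelium, it was nearly absent from the epithelial cells.

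**Figure D1:**
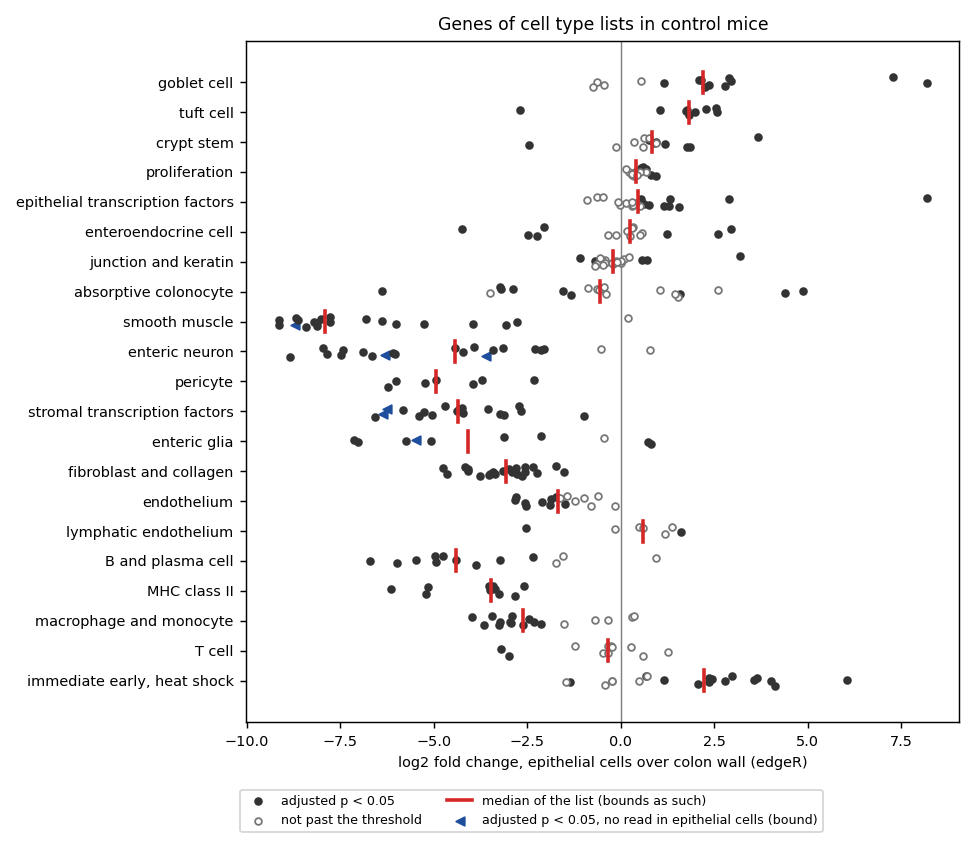
Log2 fold change of single genes, epithelial cells over colon wall (x axis), for 21 gene lists (rows). Filled points passed the adjusted threshold, open points did not, triangles are bounds of genes with no read in epithelial cells, and red bars are list medians. Smooth muscle, neuron, pericyte and fibroblast genes lie to the left of 0, and goblet and tuft cell genes lie mostly to the right.

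Gene lists of cell types gave a first check of the labels, and marker genes of the epithelium were strong in both tissues. Epcam, an adhesion molecule of epithelia, had 1211, 1218, 1846 and 1301 CPM in epithelial cells, against 1932, 1558, 2481 and 1535 CPM in wall (log2 fold change -0.43 ± 0.23, adjusted p = 0.182). Vil1, a structural protein of microvilli, had 511, 582, 1181 and 526 CPM in epithelial cells, against 780.1, 679, 749 and 589.7 CPM in wall (log2 fold change 0.00 ± 0.28, adjusted p = 0.999). The ranges of the groups overlapped in both genes through epithelial replicate 3. Without that library Epcam was called lower in epithelial cells (log2 fold change -0.59, adjusted p = 0.0278). Markers of other cell types separated the groups. Acta2, smooth muscle actin, had 9.58, 18.4, 2.46 and 12.6 CPM in epithelial cells, against 2765, 2490.3, 2987 and 2965 CPM in wall (log2 fold change -8.03 ± 0.60, adjusted p = 1.38e-05). Col1a1, a collagen of fibroblasts, had 5.44, 27.9, 0.873 and 14.6 CPM in epithelial cells and 121, 176, 113 and 147 CPM in wall (log2 fold change -3.52 ± 0.73, adjusted p = 0.004). Both were many times lower in every epithelial library, and a nerve marker was also lower. Elavl4, an RNA-binding protein of neurons, had 0.604, 0.904, 0.159 and 0.825 CPM in epithelial cells and 5.3, 6.32, 6.02 and 4.13 CPM in wall (log2 fold change -3.15 ± 0.43, adjusted p = 0.000381). The groups did not overlap in any of these 3 genes, and none of the 3 was at 0 in an epithelial library. Without epithelial replicate 2 the log2 fold change of Col1a1 was -4.38. Pecam1, an endothelial adhesion molecule, had 12.2, 15.9, 5.48 and 11 CPM in epithelial cells and 41.7, 32.5, 43.9 and 43.8 CPM in wall (log2 fold change -1.86 ± 0.28, adjusted p = 0.000679). Ptprc, which encodes the leukocyte protein CD45, had 14.1, 10.4, 10.2 and 11 CPM in epithelial cells and 41.9, 9.65, 27.9 and 49.6 CPM in wall (log2 fold change -1.50 ± 0.42, adjusted p = 0.0177). Its ranges overlapped through wall replicate 2, and its call was lost without wall replicate 1 or wall replicate 4 (adjusted p = 0.051 to 0.0538).

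**Figure D2:**
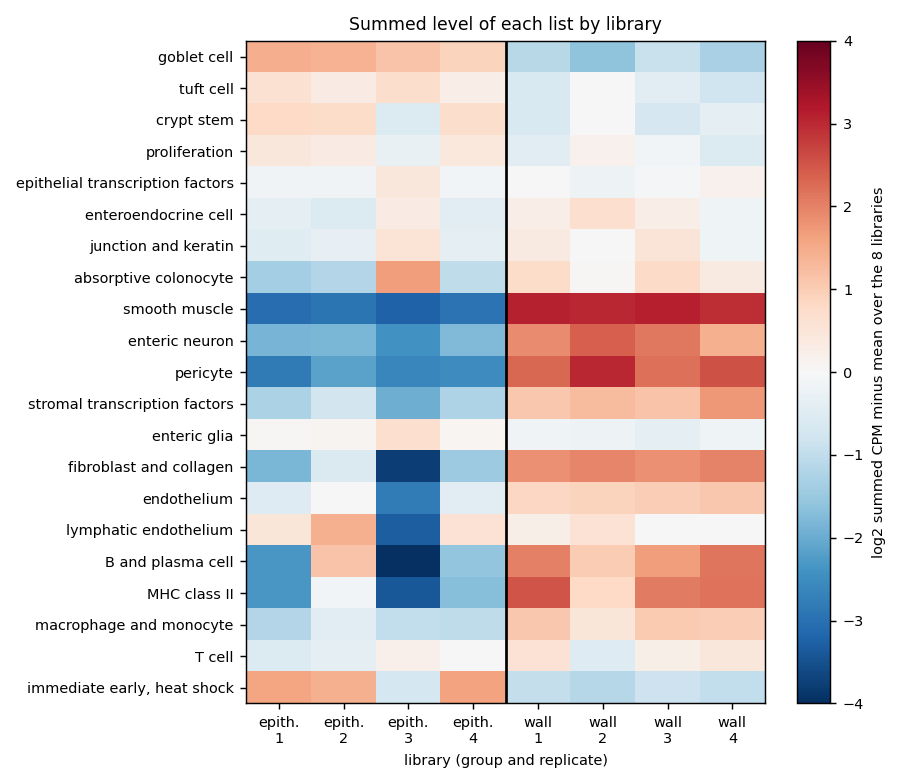
Summed level of each gene list (rows) in the 4 epithelial and 4 wall libraries (columns), as log2 summed CPM minus the mean over the 8 libraries. Smooth muscle sums reached 240.3 to 301 CPM in epithelial cells and 17559 to 19638 CPM in wall, and epithelial replicate 3 stands apart in the colonocyte, fibroblast, lymphatic and immediate early rows.

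Smooth muscle genes had the lowest median of the 48 gene lists. Of 20 listed genes, all of which passed the filter, 19 were lower in epithelial cells, where 21.8% of all genes were called lower. The list median was -7.91, against a median of -0.01 over all genes tested. Among the 20, 13 passed the filter level in all 8 libraries, 12 of those lower. The other 7 reached it in the wall libraries alone, where the filter itself favours a difference. The sum over the list was 276, 301, 240.3 and 292 CPM in epithelial cells, against 19080.2, 18216, 19638 and 17559 CPM in wall. Myh11, the smooth muscle myosin heavy chain, had 6.13, 10.7, 3.33 and 7.97 CPM in epithelial cells and 3193, 2380.2, 2533 and 3078 CPM in wall (log2 fold change -8.64 ± 0.43, adjusted p = 1.47e-06). Des, an intermediate filament of muscle, had 4.57, 4.28, 1.03 and 5.22 CPM in epithelial cells and 2112, 2383, 2244 and 1742 CPM in wall (log2 fold change -9.15 ± 0.51, adjusted p = 3.05e-06). For both genes the wall libraries lay close together and far above every epithelial library. Actg2 and Tagln, contractile proteins of the same cells, had log2 fold changes of -9.13 and -8.21. Mylk, the kinase that switches smooth muscle myosin on, was an exception in size, with 28.9, 37.6, 130.5 and 28.2 CPM in epithelial cells and 830.5, 741, 783 and 1109 CPM in wall (log2 fold change -3.94 ± 0.53, adjusted p = 0.000341). Mylk was highest in epithelial replicate 3, where Myh11 and Des were lowest, and its log2 fold change without that library was -4.78. The gene that did not pass was Srf, a general transcription factor for muscle and immediate early genes, at 134, 124, 60.4 and 148 CPM in epithelial cells and 112, 88.7, 116 and 88.5 CPM in wall (log2 fold change 0.20 ± 0.25, adjusted p = 0.569). Its muscle partner Myocd had 0, 0.164, 0 and 0.275 CPM in epithelial cells, against 6.85, 11.1, 5.07 and 9.37 CPM in wall (log2 fold change -6.39 ± 0.66, adjusted p = 7.63e-05), with -7.12 without epithelial replicate 4. Without epithelial replicate 3, Srf was called higher in epithelial cells (log2 fold change 0.42, adjusted p = 0.0275).

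SRF binds a sequence known as the CArG box, and the promoter of Myl9, the smooth muscle myosin regulatory light chain, is shown because it carries a match. Myl9 itself had 4.75, 9.21, 1.03 and 4.26 CPM in epithelial cells, against 1082, 1066, 1054 and 1037 CPM in wall (log2 fold change -7.78 ± 0.58, adjusted p = 1.32e-05). The window runs from 250 bases before to 50 bases after the gene start, on the plus strand of chr2:156775214-156775513 (RefSeq, GRCm38.p6), and the capitals mark the CArG box.
Myl9: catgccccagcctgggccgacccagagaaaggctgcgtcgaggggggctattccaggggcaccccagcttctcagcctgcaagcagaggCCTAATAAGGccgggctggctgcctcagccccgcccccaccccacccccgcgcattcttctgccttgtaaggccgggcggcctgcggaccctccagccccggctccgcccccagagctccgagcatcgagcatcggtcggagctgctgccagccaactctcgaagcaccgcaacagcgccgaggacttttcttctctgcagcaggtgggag
Such a box, read on both strands, was present in 2 of the 16 smooth muscle genes with a promoter window, 12.5%, and in 1.81% of all 27025 genes with one. A match in this window is a description of the sequence and no evidence of binding.

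Most neuron genes were low or absent in the epithelial cells, and glia genes were mixed. Of 21 tested neuron genes 19 were lower in epithelial cells, with a median of -6.03 as fitted and -4.44 with genes that had no epithelial read placed at their bound. No more than 6 of the 21 passed the filter level in all 8 libraries, and 15 reached it in the wall libraries alone, where the filter itself favours a difference. Vip, a relaxing neuropeptide of motor neurons, had 0.0863, 0.164, 0.159 and 0 CPM in epithelial cells, against 45.3, 92.6, 54.2 and 22.4 CPM in wall (log2 fold change -8.84 ± 0.64, adjusted p = 1.15e-05). Prph, a filament of peripheral neurons, had 0.173, 0, 0.159 and 0.138 CPM in epithelial cells, against 20.2, 24.2, 23.2 and 14 CPM in wall (log2 fold change -7.43 ± 0.45, adjusted p = 4.59e-06). Nos1, the neuronal nitric oxide synthase, had 0.0863, 0.0822, 0 and 0 CPM in epithelial cells and 9.98, 10.6, 8.55 and 5.8 CPM in wall. These genes were present in every wall library and near 0 in every epithelial one. Of 10 tested glia genes, 7 were lower in epithelial cells and 2 were higher. The filter level was reached in all 8 libraries by 4 of them, 1 lower and 2 higher, and 6 reached it in the wall libraries alone. Sox10, a factor of glia and their precursors, had no epithelial read and 1.88, 3.88, 2.38 and 4.15 CPM in wall, at least 44.7-fold lower in epithelial cells. Gfap, a glial filament, had 0.259, 0.411, 0.318 and 0.412 CPM in epithelial cells, against 15.5, 33.4, 21.7 and 3.82 CPM in wall (log2 fold change -5.74 ± 0.71, adjusted p = 0.000214). The higher genes were Erbb3 (0.74) and L1cam (0.81). As a sum the glia list was higher in every epithelial library, at 381, 402, 584 and 386 CPM, against 336, 320, 283 and 327 CPM in wall. In epithelial replicate 3 Erbb3 alone had 351 CPM. Erbb3 is an EGF family receptor that epithelial cells also carry, and its call was lost without wall replicate 2 or 3 (adjusted p = 0.0588 to 0.0699).

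Connective tissue genes were lower in epithelial cells without exception among those tested, but were not absent. All 22 fibroblast and collagen genes were called lower, with a median of -3.07, and 13 of them passed the filter level in all 8 libraries. The list summed to 249.9, 600, 65.2 and 326 CPM in epithelial cells, against 3152, 3428, 3176 and 3529 CPM in wall, and the epithelial libraries thus differed among themselves by more than the wall ones. Col3a1, a fibrillar collagen, had 19.4, 87.7, 3.1 and 46.2 CPM in epithelial cells and 400, 417, 384 and 469.8 CPM in wall (log2 fold change -3.42 ± 0.75, adjusted p = 0.0054). Fn1, fibronectin, had 46.4, 88.7, 22.1 and 54 CPM in epithelial cells and 709, 690.2, 768 and 707 CPM in wall (log2 fold change -3.77 ± 0.37, adjusted p = 5.89e-05). Postn, a matrix protein of fibroblasts near the crypt, had 3.19, 37.2, 0.794 and 15.7 CPM in epithelial cells and 389, 316, 393 and 433 CPM in wall (log2 fold change -4.75 ± 0.91, adjusted p = 0.00252). Epithelial replicate 2 was the highest and replicate 3 the lowest of the epithelial libraries in all 3 genes. Without epithelial replicate 2 the log2 fold change was -4.20 for Col3a1 and -5.93 for Postn. Pericyte genes, of the cells that wrap small vessels, were lower in epithelial cells in 7 of 7 tested, with Rgs5 at 0.0863, 0.822, 0 and 1.1 CPM in epithelial cells and 27.6, 55.4, 23.1 and 29 CPM in wall (log2 fold change -6.22 ± 0.68, adjusted p = 0.000104). In all 8 libraries 2 of the 7 passed the filter level, and 5 reached it in the wall libraries alone. Stromal transcription factors were lower in 18 of 18 tested, with a median of -4.36 as fitted and -4.36 with bounds, and 1 of the 18 passed the filter level in all 8 libraries. Hand2, required for enteric neuron and muscle development, had 0.0863, 0.329, 0.159 and 0 CPM in epithelial cells and 10.8, 16.6, 15.5 and 19.3 CPM in wall (log2 fold change -6.59 ± 0.47, adjusted p = 1.09e-05; -7.32 without epithelial replicate 2), and Hand1 had no epithelial read and 3.76 to 7.08 CPM in wall. Of the genes listed for interstitial cells of Cajal, the pacemakers of gut muscle, 5 were lower, and 3 of 8 were higher in epithelial cells, namely Kit, Edn3 and Gnat2, of which Edn3 lost its call without wall replicate 1 or 3 (adjusted p = 0.0513 to 0.0522). Kit encodes a receptor that secretory cells of the mouse colon crypt also carry, and it had 262, 244, 127 and 222 CPM in epithelial cells, against 39.3, 56, 38.3 and 42.8 CPM in wall (log2 fold change 2.28 ± 0.24, adjusted p = 8.57e-05).

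Of 27 laminin and integrin genes 20 were lower in epithelial cells and 1 was higher, with a median of -1.90. The filter level was reached in all 8 libraries by 19 of them, 13 lower and 1 higher. Lama5, a laminin chain of mature gut basement membrane, had 13.3, 14.2, 3.49 and 16.1 CPM in epithelial cells and 60.1, 137, 48.7 and 62.8 CPM in wall (log2 fold change -2.72 ± 0.47, adjusted p = 0.00146). Lama3, a laminin chain made by epithelia, had 8.89, 4.6, 37.1 and 8.94 CPM in epithelial cells and 142, 81.3, 107 and 75 CPM in wall (log2 fold change -2.75 ± 0.57, adjusted p = 0.00407), with -3.78 without epithelial replicate 3. Itga5, the fibronectin receptor subunit, had 30.6, 34, 20.4 and 24.7 CPM in epithelial cells and 439, 451, 381 and 174 CPM in wall (log2 fold change -3.72 ± 0.32, adjusted p = 3.08e-05). The higher gene was Itga2, a collagen receptor subunit, at 72.2, 81.1, 46.8 and 75.6 CPM in epithelial cells and 5.88, 14.4, 5.44 and 8.52 CPM in wall (log2 fold change 3.02 ± 0.33, adjusted p = 0.000103). Lama1, a chain found in developing basement membranes, had no epithelial read and 1.21 to 1.9 CPM in wall.

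The epithelial genes themselves did not move as a block. Among 20 junction and keratin genes 3 were higher in epithelial cells, 2 were lower, and 15 did not pass, with a median of -0.22. These shares were near or below the 15.9% higher and 21.8% lower over all genes tested. Cdh1, E-cadherin, had 937, 1029, 1291 and 907 CPM in epithelial cells and 1534, 1411, 1633 and 1343 CPM in wall (log2 fold change -0.51 ± 0.18, adjusted p = 0.0521). Krt8, a keratin of simple epithelia, had 2880.2, 3391, 8156 and 3339 CPM in epithelial cells and 7183, 4416, 8163 and 4222 CPM in wall (log2 fold change -0.43 ± 0.39, adjusted p = 0.423). Without epithelial replicate 3, Cdh1 (-0.63, adjusted p = 0.00527) and Krt8 (-0.91, adjusted p = 0.016) were called lower in epithelial cells. Cdh1 was also called lower without wall replicate 4 (log2 fold change -0.56, adjusted p = 0.0336). Cldn15, a claudin that forms sodium pores, was the member with the largest difference, at 493, 522, 352 and 449 CPM in epithelial cells and 40.1, 80.2, 46.5 and 33.7 CPM in wall (log2 fold change 3.18 ± 0.29, adjusted p = 3.71e-05). Ocln, a tight junction protein, had 94.7, 100.4, 120.2 and 97.1 CPM in epithelial cells and 184, 128, 199 and 158 CPM in wall (log2 fold change -0.70 ± 0.16, adjusted p = 0.00759). The other lower gene, Cldn4, lost its call without any 1 library other than epithelial replicate 3 or wall replicate 4 (adjusted p = 0.0578 to 0.102). Of 20 epithelial transcription factors 9 were higher in epithelial cells and none was lower (median 0.46). Cdx2, the homeobox factor that sets intestinal identity, had 144, 142, 344 and 179 CPM in epithelial cells and 18, 54, 19.7 and 16.4 CPM in wall (log2 fold change 2.91 ± 0.46, adjusted p = 0.000852), with 3.56 without wall replicate 2. Hnf4a, a nuclear receptor of enterocytes, had 462, 506, 1131 and 424 CPM in epithelial cells and 1094, 852, 1074 and 888 CPM in wall (log2 fold change -0.63 ± 0.31, adjusted p = 0.143). Hnf4a was called lower in epithelial cells without epithelial replicate 3 (-1.08, adjusted p = 0.000266).

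Goblet cell genes were the main epithelial group with more signal in the epithelial cells. Of 14 tested 10 were higher and none was lower, with a median of 2.20, where 15.9% of all genes were called higher. All 14 passed the filter level in all 8 libraries, and the list summed to 60269, 57769, 48517 and 40556 CPM in epithelial cells, against 10111, 7191, 11659 and 8881 CPM in wall. Clca3, the older name of Clca1, a secreted protease that shapes mucus, had 29920, 29087, 24488 and 19014 CPM in epithelial cells and 3393, 2348, 3748 and 4174 CPM in wall (log2 fold change 2.91 ± 0.32, adjusted p = 0.000109). Fcgbp, a mucus component, had 11615, 9798, 9149 and 7250.5 CPM in epithelial cells and 2222, 1547, 2129.7 and 2048 CPM in wall (log2 fold change 2.25 ± 0.26, adjusted p = 0.000128). Spdef, a transcription factor for goblet cell maturation, had 374, 265, 208 and 259.6 CPM in epithelial cells and 30.2, 47.1, 36.6 and 28.7 CPM in wall (log2 fold change 2.96 ± 0.23, adjusted p = 1.79e-05). The groups did not overlap in these 3 genes, and epithelial replicate 3 lay near the other epithelial libraries. Of the goblet genes called, Retnlb and Ang4 had the largest fold changes. Retnlb, an antibacterial hormone-like protein, had 4906, 6244, 2328 and 3839 CPM in epithelial cells and 1.39, 56.8, 0.992 and 0.752 CPM in wall (log2 fold change 8.20 ± 1.66, adjusted p = 0.00349). Ang4, an antimicrobial ribonuclease, had 3425, 3365, 3122 and 2326 CPM in epithelial cells and 3.6, 67.9, 2.28 and 5.31 CPM in wall (log2 fold change 7.29 ± 1.22, adjusted p = 0.00118). Both were higher in wall replicate 2 than in the other wall libraries, and without it their log2 fold changes were 12.06 for Retnlb and 9.72 for Ang4. Itln1, a lectin that binds microbial sugars, had 289.6, 409.6, 189.9 and 284 CPM in epithelial cells and 1.72, 3.8, 2.03 and 1.39 CPM in wall (log2 fold change 7.08 ± 0.41, adjusted p = 3.53e-06). Zg16 and Tff3, a mucus lectin and a repair peptide, did not pass, with log2 fold changes of -0.73 and -0.62. Without epithelial replicate 3 both were called lower in epithelial cells (Zg16 -2.24, adjusted p = 0.00187; Tff3 -1.41, adjusted p = 0.00923).

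Tuft cell genes were higher in epithelial cells in 8 of 9 tested, with a median of 1.81. Trpm5, the cation channel of tuft cell sensing, had 36.4, 27.1, 36.9 and 26.4 CPM in epithelial cells and 4.97, 8.37, 4.76 and 3.49 CPM in wall (log2 fold change 2.57 ± 0.28, adjusted p = 0.000103). Pou2f3, the factor that specifies tuft cells, had 9.41, 5.76, 6.51 and 5.36 CPM in epithelial cells and 0.896, 1.92, 0.957 and 0.927 CPM in wall (log2 fold change 2.56 ± 0.35, adjusted p = 0.000371). Ptgs1, a prostaglandin synthase that stromal cells also make, was the exception, at 4.49, 7.4, 4.76 and 4.54 CPM in epithelial cells and 29, 43, 38.4 and 28.2 CPM in wall (log2 fold change -2.70 ± 0.23, adjusted p = 3.08e-05). Crypt stem and Wnt target genes were higher in 7 of 14 and lower in 1. Among the higher ones, Axin2 lost its call without any 1 library other than epithelial replicate 3 or wall replicate 2 (adjusted p = 0.0525 to 0.0987). Lgr5, the R-spondin receptor that marks crypt stem cells, had 33.7, 35.5, 9.92 and 24.6 CPM in epithelial cells and 7.46, 9.65, 5.41 and 8.12 CPM in wall (log2 fold change 1.76 ± 0.37, adjusted p = 0.00402). Cd44, a cell surface glycoprotein of the crypt, had 195, 234, 82.5 and 189 CPM in epithelial cells and 44.9, 70.8, 39.5 and 38.9 CPM in wall (log2 fold change 1.85 ± 0.32, adjusted p = 0.00142). Replicate 3 was the lowest epithelial library in both genes and did not overlap the wall. The lower gene was Nkd1, a Wnt feedback inhibitor, at 5.52, 5.18, 3.25 and 5.09 CPM in epithelial cells and 22.5, 26.3, 21.9 and 34.2 CPM in wall (log2 fold change -2.46 ± 0.23, adjusted p = 4.89e-05). Proliferation genes were higher in 5 of 16, all by less than 1 log2 unit.

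Of 15 enteroendocrine genes 3 were higher, 4 were lower and 8 did not pass, shares near the 15.9% higher and 21.8% lower over all genes tested. Cck, cholecystokinin, had 3.71, 2.3, 1.19 and 2.61 CPM in epithelial cells and 0.193, 0.811, 0.285 and 0.42 CPM in wall (log2 fold change 2.60 ± 0.51, adjusted p = 0.00279). Pyy, peptide YY, had 32.2, 27.7, 23.9 and 25.8 CPM in epithelial cells and 122, 148, 119.7 and 67.1 CPM in wall (log2 fold change -2.06 ± 0.23, adjusted p = 0.00012). Every epithelial library was above the wall in Cck and below it in Pyy. Insl5, a hormone of distal colon cells, had 25.9, 27.8, 7.86 and 16.4 CPM in epithelial cells and 87.5, 148, 93.4 and 40.5 CPM in wall (log2 fold change -2.24 ± 0.45, adjusted p = 0.00327). Cpe, a hormone-processing enzyme that neurons also make, had 11, 8.96, 7.46 and 10.3 CPM in epithelial cells and 159, 217, 167 and 170.1 CPM in wall (log2 fold change -4.24 ± 0.18, adjusted p = 8.21e-07). Gcg and Sct were called higher at log2 fold changes of 1.24 and 2.95, with 1.19 for Sct without epithelial replicate 3. The call of Gcg was lost without any 1 library other than epithelial replicate 3 or wall replicate 2 (adjusted p = 0.0628 to 0.0971), and that of Sct without wall replicate 1, 3 or 4 (adjusted p = 0.0511 to 0.0607).

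Over all genes tested 15.9% were called higher in epithelial cells and 21.8% lower. Of 20 tested genes of absorptive colonocytes 3 were higher in epithelial cells and 6 were lower, with a median of -0.54. The lower genes were Car4, Aqp8, Slc26a3, Ceacam20, Muc13 and Scnn1g, and the higher ones were Fabp2, Tmigd1 and Guca2b. Car4, a carbonic anhydrase of the surface cells, had 71.8, 76.1, 530 and 100.5 CPM in epithelial cells and 2024, 1374, 2465 and 1295 CPM in wall (log2 fold change -3.20 ± 0.68, adjusted p = 0.00446). Aqp8, a water channel, had 44.1, 12.7, 184 and 52.9 CPM in epithelial cells and 916, 555, 904 and 409 CPM in wall (log2 fold change -3.24 ± 0.70, adjusted p = 0.00494). Slc26a3, the chloride and bicarbonate exchanger, had 69.9, 97.3, 397 and 109.8 CPM in epithelial cells and 1393, 801, 1719 and 1020.3 CPM in wall (log2 fold change -2.87 ± 0.55, adjusted p = 0.00258). Epithelial replicate 3 was the highest epithelial library in all 3 genes and still below every wall library. Without it the log2 fold changes were -4.44 for Car4, -4.26 for Aqp8 and -3.74 for Slc26a3. The call of Ceacam20, an adhesion protein of the brush border, was lost without any 1 library other than epithelial replicate 3 (adjusted p = 0.0692 to 0.0985). The wall levels of sodium channel genes were uneven. Scnn1g, a subunit of the epithelial sodium channel, had 0.0863, 0, 0.794 and 0.412 CPM in epithelial cells and 51.3, 2.39, 43.5 and 11.7 CPM in wall (log2 fold change -6.40 ± 1.13, adjusted p = 0.00164; -7.68 without epithelial replicate 3). Fabp2, a fatty acid carrier of enterocytes, ran the other way, at 156, 178, 700 and 176 CPM in epithelial cells and 13.4, 24.8, 14.1 and 5.59 CPM in wall (log2 fold change 4.40 ± 0.64, adjusted p = 0.000547). Tmigd1, an adhesion protein of enterocytes, had 8.89, 13.8, 157 and 13.7 CPM in epithelial cells and 1.88, 2.6, 1.42 and 0.909 CPM in wall (log2 fold change 4.88 ± 0.99, adjusted p = 0.00359). Without epithelial replicate 3 the log2 fold changes were 3.58 for Fabp2 and 2.87 for Tmigd1. Car1, another carbonic anhydrase, had 451, 538, 15760 and 984 CPM in epithelial cells and 1955, 495, 2057 and 1584 CPM in wall (log2 fold change 1.54 ± 1.08, adjusted p = 0.297). That average rests on epithelial replicate 3, and without it Car1 was called lower in epithelial cells (log2 fold change -1.21, adjusted p = 0.0402). Atp12a, a proton pump of distal colon surface cells named here after its values were seen, had 2.24, 1.4, 2.54 and 2.47 CPM in epithelial cells and 1039, 508, 1207 and 605 CPM in wall (log2 fold change -8.61 ± 0.41, adjusted p = 1.27e-06).

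Of 15 genes of epithelial defence 7 were higher and 4 lower. Among the higher ones, Pigr lost its call without any 1 library other than epithelial replicate 3 or wall replicate 4 (adjusted p = 0.0597 to 0.108). The lower genes were Il18, Ccl20, Ccl28 and 2210415F13Rik, and Ccl28 lost its call without epithelial replicate 1 or 4 or wall replicate 1 (adjusted p = 0.0514 to 0.0592). Il18, a cytokine stored by epithelial cells, had 19.2, 15.1, 28.1 and 13.2 CPM in epithelial cells and 197, 87.1, 206 and 116 CPM in wall (log2 fold change -2.997 ± 0.34, adjusted p = 0.000124). 2210415F13Rik is the older name of Lypd8, a secreted protein that keeps bacteria off the colon surface, and it had 1052, 1354, 9031 and 1120.3 CPM in epithelial cells and 18808, 8877, 21500 and 11277 CPM in wall (log2 fold change -2.27 ± 0.74, adjusted p = 0.0365). Its ranges overlapped through epithelial replicate 3, and the call was lost without any 1 of the 8 libraries other than epithelial replicate 3 (adjusted p = 0.0536 to 0.0908), without which the log2 fold change was -3.69. Nos2, the inducible nitric oxide synthase, had 7.51, 10, 13.7 and 6.32 CPM in epithelial cells and 3.48, 2.01, 2.29 and 3.36 CPM in wall (log2 fold change 1.75 ± 0.31, adjusted p = 0.00174). Among 18 genes of butyrate oxidation and ketogenesis 3 were higher, 1 was lower and 14 did not pass, shares near or below those over all genes tested. Slc16a1, which carries butyrate into cells, had 92.7, 99.7, 229 and 123 CPM in epithelial cells and 283, 268, 323 and 371 CPM in wall (log2 fold change -1.19 ± 0.28, adjusted p = 0.00825). None of 19 oxidative phosphorylation genes and none of 22 ribosomal protein genes was called by edgeR, with medians of 0.09 and -0.10. Of 21 genes of xenobiotic metabolism, 5 were higher and 1 was lower, the alcohol dehydrogenase Adh1. Over all genes tested the shares were 15.9% higher and 21.8% lower.

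Hedgehog ligands are made by gut epithelium and act on the mesenchyme below. Shh had 3.19, 2.3, 0.794 and 1.79 CPM in epithelial cells and 0.0176, 0.0854, 0.0456 and 0.0262 CPM in wall (log2 fold change 5.67 ± 0.58, adjusted p = 7.38e-05). It passed the filter level in the epithelial libraries alone, where the filter itself favours a difference. Ihh, the main Hedgehog ligand of the adult colon, had 38.6, 33.2, 82.2 and 48.3 CPM in epithelial cells and 26.4, 43.5, 34.7 and 87.6 CPM in wall (log2 fold change 0.07 ± 0.39, adjusted p = 0.903), and its groups overlapped. Of 12 tested receptors and targets 9 were lower in epithelial cells, namely Gli1, Gli2, Gli3, Hhip, Gas1, Cdon, Foxf1a, Foxf2 and Foxl1, and Boc was higher. In all 8 libraries 4 of them passed the filter level, 1 lower and 1 higher, and 8 reached it in the wall libraries alone. Gli1, a target and effector of the pathway, had 0.518, 1.81, 0 and 0.275 CPM in epithelial cells and 4.92, 7.26, 3.23 and 8.12 CPM in wall (log2 fold change -3.12 ± 0.75, adjusted p = 0.00875). Hhip, a decoy receptor, had 0.0863, 0.493, 0 and 0.138 CPM in epithelial cells and 12.6, 7.04, 13.9 and 18.2 CPM in wall (log2 fold change -6.13 ± 0.63, adjusted p = 7.57e-05). Boc, a co-receptor, had 99.2, 96.8, 47.9 and 109 CPM in epithelial cells and 9.06, 15, 8.53 and 25 CPM in wall (log2 fold change 2.61 ± 0.39, adjusted p = 0.000605). The groups did not overlap in these 3 genes. Without epithelial replicate 2 the log2 fold change was -4.49 for Gli1 and -7.59 for Hhip. The call of Cdon, a co-receptor, was lost without epithelial replicate 2 or wall replicate 2 or 4 (adjusted p = 0.0545 to 0.0714). Ptch1, the receptor and a target, did not pass, at 18.4, 24.2, 11.2 and 19.8 CPM in epithelial cells and 7.39, 10.9, 5.86 and 21.5 CPM in wall (log2 fold change 0.68 ± 0.40, adjusted p = 0.217). Without wall replicate 4, Ptch1 was called higher in epithelial cells (log2 fold change 1.19, adjusted p = 0.0209).

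Wnt ligands were sparse, with 7 of 17 past the filter. Wnt2b, Wnt4, Wnt6 and Wnt9a were lower in epithelial cells, and the other 3 did not pass. The filter level was reached in all 8 libraries by 2 of these 7, and the 4 lower genes were not among them. Wnt4 had 2.33, 1.23, 0.397 and 0.412 CPM in epithelial cells and 3.74, 3.07, 3.76 and 5.88 CPM in wall (log2 fold change -1.88 ± 0.52, adjusted p = 0.017; -2.55 without epithelial replicate 1). Of the R-spondins and secreted Wnt inhibitors, 9 of 11 tested were lower in epithelial cells, and none reached the filter level in all epithelial libraries. Rspo3, the R-spondin of stroma below the crypt that sustains stem cells, had 0.0863, 0.576, 0 and 0 CPM in epithelial cells and 6.13, 5.25, 4.3 and 10.3 CPM in wall (log2 fold change -5.15 ± 0.74, adjusted p = 0.000535). Sfrp1, a secreted Wnt antagonist, had 0.518, 3.62, 0.0794 and 1.37 CPM in epithelial cells and 24.8, 36.1, 27.6 and 36.4 CPM in wall (log2 fold change -4.48 ± 0.67, adjusted p = 0.000617). Without epithelial replicate 2 the log2 fold change was -7.56 for Rspo3 and -5.76 for Sfrp1. Rspo2, Sfrp2, Sfrp4, Sfrp5, Frzb, Dkk2 and Dkk3 passed in the same direction. Among the receptors, Fzd3, Fzd9, Fzd10, Lgr5 and Lrp5 were higher in epithelial cells and Lgr4, Ror1 and Ryk were lower. Fzd9, a Frizzled receptor, had 12.7, 6.08, 2.78 and 6.05 CPM in epithelial cells and 0.439, 0.939, 0.365 and 0.21 CPM in wall (log2 fold change 3.93 ± 0.58, adjusted p = 0.000624). Lgr4, another R-spondin receptor, had 75.4, 79.9, 107 and 78.5 CPM in epithelial cells and 221, 144, 211 and 265 CPM in wall (log2 fold change -1.30 ± 0.20, adjusted p = 0.000793). The call of Lrp5 was lost without any 1 library other than epithelial replicate 3 or wall replicate 2 (adjusted p = 0.0743 to 0.118), and that of Ror1 without any other than epithelial replicate 1 or 3 (adjusted p = 0.054 to 0.0916). The call of Wnt2b was lost without epithelial replicate 1 or 4 (adjusted p = 0.0516 to 0.0552), and that of Ryk without epithelial replicate 2 (adjusted p = 0.06).

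Of 16 genes listed as BMP ligands and antagonists 11 were lower in epithelial cells and 1 was higher. The shares over all genes tested were 21.8% lower and 15.9% higher. In all 8 libraries 6 of the 16 passed the filter level, 3 lower and 1 higher, and 9 reached it in the wall libraries alone. The antagonists Grem1 and Chrdl1, which smooth muscle and stromal cells beneath the crypts secrete, had log2 fold changes of -6.63 and -7.11. Grem1 had 0, 0.329, 0.159 and 0.825 CPM in epithelial cells and 21.4, 43.5, 14.8 and 33.9 CPM in wall. Nog, another antagonist, had no epithelial read and 0.896 to 1.36 CPM in wall, at least 16.2-fold lower in epithelial cells. The antagonists Chrd and Chrdl2 and the ligands Bmp5 and Bmp6 were also lower, as was Bmp1, which is a protease and no BMP ligand. The ligand Bmp4 had 1.38, 5.34, 0.0794 and 1.51 CPM in epithelial cells and 14.6, 16.8, 14.5 and 26 CPM in wall (log2 fold change -3.10 ± 0.70, adjusted p = 0.00653), with -4.26 without epithelial replicate 2. Bmp2, a ligand of surface epithelium, had 6.13, 6.41, 15.9 and 3.3 CPM in epithelial cells and 78.3, 37.7, 71.1 and 90.6 CPM in wall (log2 fold change -3.11 ± 0.45, adjusted p = 0.000519). Bmp7 was the ligand with more signal in epithelial cells, at 14.8, 12.9, 6.59 and 11.7 CPM, against 3.64, 2.56, 3.76 and 4.88 CPM in wall (log2 fold change 1.62 ± 0.30, adjusted p = 0.00219). The call of Bmp5 was lost without epithelial replicate 1 or 4 or wall replicate 1, 3 or 4 (adjusted p = 0.0748 to 0.106).

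In the EGF family, ligands were found on both sides. Hbegf had 201, 213, 72.2 and 224 CPM in epithelial cells and 23.5, 23, 21.9 and 38.1 CPM in wall (log2 fold change 2.73 ± 0.35, adjusted p = 0.000273), and Egf had 10.6, 11.2, 11.3 and 16.2 CPM in epithelial cells and 2.88, 2.6, 2.5 and 3.95 CPM in wall (log2 fold change 2.04 ± 0.25, adjusted p = 0.000198). Nrg4 was also higher (1.33), a call lost without any 1 library other than epithelial replicate 3 or wall replicate 2 (adjusted p = 0.0726 to 0.108). In Hbegf and Egf every epithelial library was above every wall library, and other ligands ran the other way. Ereg had 2.85, 1.64, 1.51 and 2.34 CPM in epithelial cells and 10, 8.24, 8.73 and 9.01 CPM in wall (log2 fold change -2.12 ± 0.26, adjusted p = 0.000228). Nrg1, a stromal growth factor for the crypt, had 0.0863, 0.493, 0 and 0 CPM in epithelial cells and 1.93, 1.58, 1.93 and 2.55 CPM in wall (log2 fold change -3.64 ± 0.70, adjusted p = 0.0026), with -5.86 without epithelial replicate 2. The receptors Egfr and Erbb2 did not pass, at 0.31 and 0.11, but without epithelial replicate 3 Egfr was called higher (0.38, adjusted p = 0.0484) and Erbb2 lower (-0.40, adjusted p = 0.0174). Of 13 PDGF, VEGF, CSF1 and KIT family genes, 7 were lower in epithelial cells (Pdgfa, Pdgfd, Pdgfra, Pdgfrb, Csf1, Csf1r and Flt1), and Kit and Vegfa were higher. The filter level was reached in all 8 libraries by 9 of them, 4 lower and 2 higher. The calls of Flt1, Pdgfa and Pdgfra were lost in turn without epithelial replicate 1 or wall replicate 1, 3 or 4 (adjusted p = 0.0526 to 0.0683), without epithelial replicate 1 (adjusted p = 0.0502) and without wall replicate 4 (adjusted p = 0.0531). Of 12 Notch pathway genes 6 were lower (Dll1, Notch2, Notch3, Hey1, Hey2 and Heyl), and Dll4 and Hes1 were higher. In all 8 libraries 8 of them passed the filter level, 2 lower and 2 higher. The shares over all genes tested were 15.9% higher and 21.8% lower. For both the PDGF and the Notch list, the share called higher was near the 15.9%. The call of Hes1 was lost without any 1 library other than epithelial replicate 3 (adjusted p = 0.051 to 0.114), that of Dll4 without any 1 library other than epithelial replicate 3 or wall replicate 4 (adjusted p = 0.0646 to 0.122), and that of Dll1 without epithelial replicate 1 (adjusted p = 0.0502).

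**Figure D3:**
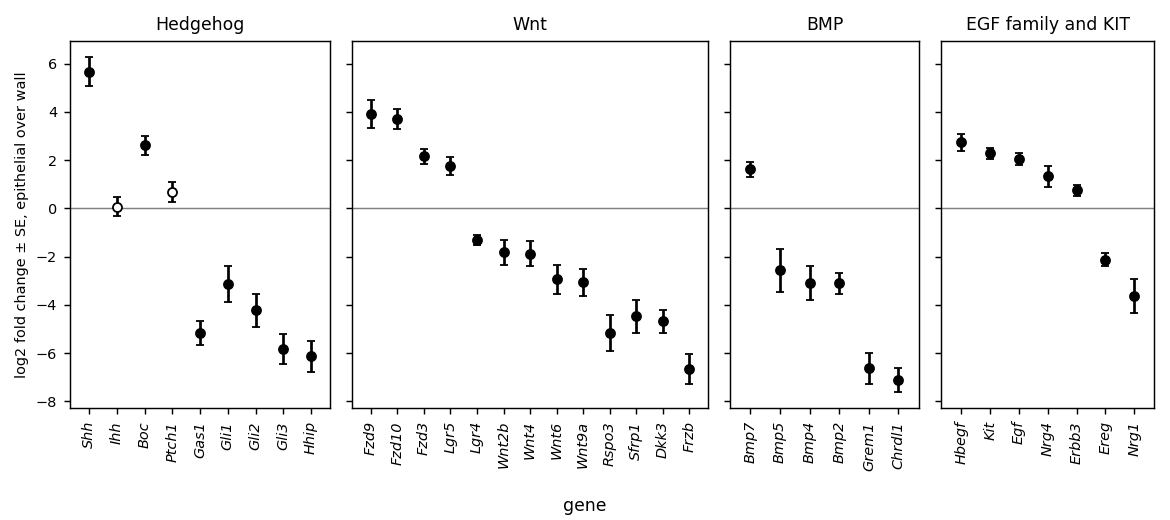
Log2 fold change with its standard error, epithelial cells over colon wall, for ligands, receptors and inhibitors of 4 pathways (x axis, gene). Filled points passed the adjusted threshold and open points did not. Shh, Fzd9, Bmp7 and Hbegf lie above 0, and Hhip, Frzb, Chrdl1 and Nrg1 lie far below.

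Hox genes keep positional identity along the body axis, and those with high numbers mark the hindgut end. Of 28 tested 10 were higher in epithelial cells, namely Hoxb3 to Hoxb9, Hoxd3, Hoxd4 and Hoxd8. Another 7 were lower, namely Hoxa13, Hoxb13 and Hoxd9 to Hoxd13. Among the 28, 19 passed the filter level in all 8 libraries, 8 of those higher and 2 lower. In the wall libraries alone 5 reached it, and in the epithelial libraries alone 2, where the filter itself favours a difference. Hoxb8 (chromosome 11, 96281905 to 96285325, plus strand, mm10) had 19.9, 20.1, 34.2 and 29.1 CPM in epithelial cells and 0.281, 1.07, 0.49 and 0.638 CPM in wall (log2 fold change 5.46 ± 0.41, adjusted p = 1.38e-05). Hoxb13 (chromosome 11, 96194361 to 96196599, plus strand) had 72.5, 46.4, 43.1 and 27.6 CPM in epithelial cells and 572, 415, 523 and 400.2 CPM in wall (log2 fold change -3.33 ± 0.29, adjusted p = 3.16e-05). The groups did not overlap in either gene, and they went opposite ways within a single cluster. Hoxd4 (chromosome 2, 74721978 to 74729159, plus strand) had 14.8, 13.6, 10 and 20.3 CPM in epithelial cells and 0.615, 1.11, 0.935 and 1.91 CPM in wall (log2 fold change 3.66 ± 0.39, adjusted p = 9.32e-05). Hoxd13 (chromosome 2, 74668310 to 74671598, plus strand) had 0.259, 0.329, 0.0794 and 0 CPM in epithelial cells and 100.4, 61.5, 98 and 185 CPM in wall (log2 fold change -9.23 ± 0.55, adjusted p = 3.97e-06). Hoxd12 had no epithelial read and 14.8, 5.04, 19.6 and 20.9 CPM in wall, at least 219-fold lower in epithelial cells. In both, the most posterior members of the cluster, epithelial cells were at or near 0. Hoxd11 had 3 epithelial counts, a pooled ratio of 154 (95% counting interval 52.6 to 747). Hoxa13 differed by less, at 7.51, 9.04, 6.83 and 7.97 CPM in epithelial cells and 13.8, 13.9, 12.8 and 20.1 CPM in wall (log2 fold change -0.95 ± 0.21, adjusted p = 0.00514). The 10 other Hoxa genes tested did not pass, and the call of Hoxd8 was lost without any 1 library other than epithelial replicate 2 or 3 or wall replicate 3 (adjusted p = 0.063 to 0.118). Of 6 genes listed for small intestine and pancreas 2 were higher and 2 lower, where 15.9% and 21.8% of all genes tested were. The 2 higher genes passed the filter level in the epithelial libraries alone, where the filter itself favours a difference. The brush border enzymes Sis and Alpi were higher in epithelial cells, at 0.69 to 18.4 and 5.87 to 49.3 CPM, against 0 to 0.131 and 0.306 to 0.726 CPM in wall. Epithelial replicate 3 was the highest in both, and without it their log2 fold changes were 3.16 for Sis and 4.09 for Alpi. Position is given for the wall pieces alone, so the stretch of colon and the kind of sample cannot be told apart.

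**Figure D4:**
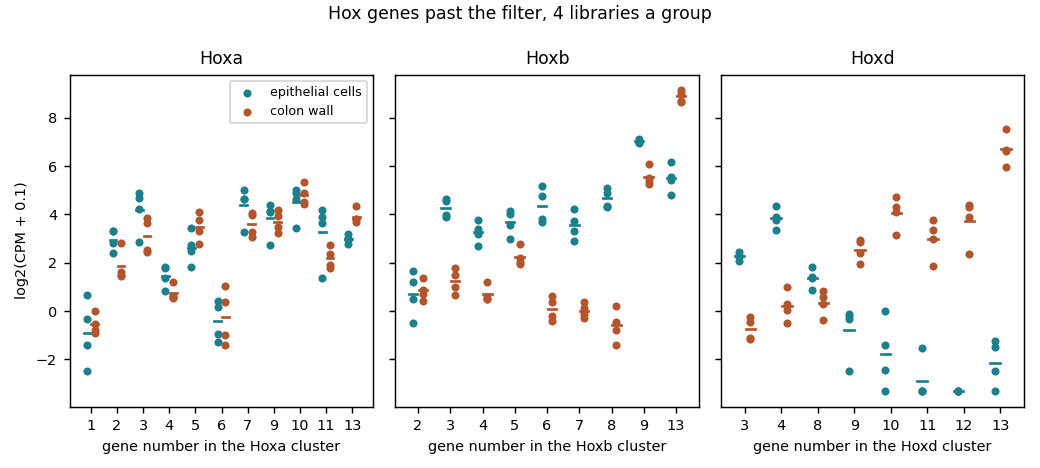
Level of each tested Hox gene as log2(CPM + 0.1) (y axis) in the 4 epithelial and 4 wall libraries, by gene number in the Hoxa, Hoxb and Hoxd clusters (x axis). Points are libraries and short lines are group means, and points at the lowest level are libraries with no read. Epithelial cells lie above the wall in Hoxb3 to Hoxb9 and below it in Hoxb13 and Hoxd9 to Hoxd13.

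Immune genes were lower in epithelial cells for B cells, macrophages and antigen presentation. Of 13 B and plasma cell genes 10 were lower (median -4.41), of 17 macrophage genes 12 were lower (median -2.62), and all 10 MHC class II genes were lower (median -3.46). In all 8 libraries, 3, 7 and 6 of the tested genes of these lists passed the filter level, and of those 1, 4 and 6 were lower. Wall replicate 2 was the lowest wall library in the summed class II genes. Igj, the older name of Jchain, which links secreted IgA, had 8.28, 209.5, 3.17 and 28.3 CPM in epithelial cells and 198, 176, 192 and 265 CPM in wall (log2 fold change -1.73 ± 0.999, adjusted p = 0.205). Epithelial replicate 2 lay within the wall range, and without it Igj was called lower (log2 fold change -4.001, adjusted p = 0.00155). Igj thus differed among epithelial libraries as much as between the groups. Lyz2, lysozyme of macrophages, had 5.09, 18.7, 1.35 and 9.62 CPM in epithelial cells and 167, 77.8, 160.4 and 137 CPM in wall (log2 fold change -3.97 ± 0.63, adjusted p = 0.000861). Cd74, the class II invariant chain, had 19.8, 96.8, 5.24 and 29.3 CPM in epithelial cells and 561, 166, 389 and 443 CPM in wall (log2 fold change -3.37 ± 0.76, adjusted p = 0.00638). Without epithelial replicate 2 the log2 fold change was -4.71 for Lyz2 and -4.44 for Cd74. T cells live within the epithelium as well as beneath it, and of 11 T cell genes 2 were lower, Cd4 and Cd2, with a median of -0.34. That share was near the 21.8% called lower over all genes tested, and neither gene passed the filter level in all 8 libraries. Of 5 genes of intraepithelial and cytotoxic lymphocytes, 1 was higher, Gzmb, and 4 did not pass. The filter level was reached in all 8 libraries by 1 of the 5, which was not Gzmb. Gzmb, a cytotoxic granule protease, had 1.64, 0.904, 2.86 and 0.962 CPM in epithelial cells and 0.351, 0.213, 0.365 and 0.367 CPM in wall (log2 fold change 2.26 ± 0.43, adjusted p = 0.00233). Of 4 mast cell genes tested 2 were higher and 2 were lower, and none passed the filter level in all 8 libraries. Mcpt1, a protease of mast cells in the mucosa, had 3.54, 4.03, 7.22 and 2.61 CPM in epithelial cells and 0.685, 0.896, 0.786 and 0.446 CPM in wall (log2 fold change 2.66 ± 0.39, adjusted p = 0.000598). Cma1, a protease of mast cells in connective tissue, had 0, 0.576, 0.238 and 0.138 CPM in epithelial cells and 3.95, 7.47, 5.56 and 3.07 CPM in wall (log2 fold change -4.31 ± 0.64, adjusted p = 0.000595; -5.27 without epithelial replicate 2).

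Of 16 endothelial genes 9 were lower in epithelial cells (median -1.68) and 7 did not pass. The filter level was reached in all 8 libraries by 4 of them, 3 of those lower, and 12 reached it in the wall libraries alone. Of 7 lymphatic genes 1 was higher, 1 was lower and 5 did not pass. Those lymphatic shares were near or below the 15.9% higher and 21.8% lower over all genes tested. Plvap, a protein of capillary pores, had 6.73, 11.2, 1.11 and 8.39 CPM in epithelial cells and 35.9, 39.6, 45.5 and 39.2 CPM in wall (log2 fold change -2.56 ± 0.49, adjusted p = 0.00253). Lymphatic genes were at wall level or above it in epithelial replicates 1, 2 and 4 and low in replicate 3. The list of 7 genes summed to 139, 265, 10.2 and 150 CPM in epithelial cells, against 117, 148, 100 and 100.2 CPM in wall. Lyve1, a hyaluronan receptor of lymphatics, had 25.1, 46.6, 3.89 and 30.5 CPM in epithelial cells and 17.5, 25.9, 17.3 and 14.7 CPM in wall (log2 fold change 0.50 ± 0.54, adjusted p = 0.508). Mmrn1, a matrix protein of lymphatic endothelium, had 27.6, 57.4, 0.873 and 30.7 CPM in epithelial cells and 10.2, 17.9, 8.9 and 8.46 CPM in wall (log2 fold change 1.36 ± 0.78, adjusted p = 0.199). Without epithelial replicate 3, Lyve1 (0.86, adjusted p = 0.0128) and Mmrn1 (1.78, adjusted p = 0.000898) were called higher in epithelial cells. Pdpn, a lymphatic surface protein that stromal cells also carry, was lower (-2.53), and Prox1, the master factor of lymphatic identity, was higher (1.61), a call lost without epithelial replicate 2 or 4 or wall replicate 1 or 3 (adjusted p = 0.0505 to 0.0688). Adipocyte genes were concentrated in wall replicate 2, and 3 of 6 tested were lower in epithelial cells, none of them past the filter level in all 8 libraries. Adipoq, a fat cell hormone that did not reach the filter, had no epithelial read and 1.48, 33.8, 0.216 and 1.23 CPM in wall. None of 6 mesothelial genes and none of 4 haemoglobin genes was called by edgeR, and of 3 keratins of squamous epithelium 1 was lower, Krt14, a call lost without any 1 library other than epithelial replicate 1 or 3 or wall replicate 4 (adjusted p = 0.0535 to 0.136).

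Immediate early genes, which switch on within minutes of stimulation or of handling tissue, were high in epithelial replicates 1, 2 and 4. Of 20 immediate early and heat shock genes 13 were higher in epithelial cells and 1 was lower (median 2.22). The shares over all genes tested were 15.9% higher and 21.8% lower. The list summed to 9905, 8893, 2025 and 10089.9 CPM in epithelial cells, against 1703, 1501, 1861 and 1678 CPM in wall. Replicate 3 was thus close to the wall, and the other 3 were far above. Fos, a subunit of the AP-1 factor, had 2040.1, 1808, 320.1 and 2006 CPM in epithelial cells and 95.2, 45, 64.1 and 287 CPM in wall (log2 fold change 3.65 ± 0.73, adjusted p = 0.00318), with 4.49 without wall replicate 4. Nr4a1, an early response nuclear receptor, had 825, 673, 20.2 and 674 CPM in epithelial cells and 63.9, 33.2, 50.3 and 37.4 CPM in wall (log2 fold change 3.57 ± 0.83, adjusted p = 0.00736), and replicate 3 fell below every wall library. Atf3, a stress response factor, had 937, 796, 88 and 973 CPM in epithelial cells and 129, 41.5, 123 and 59.2 CPM in wall (log2 fold change 2.99 ± 0.67, adjusted p = 0.00607). The lower gene was the heat shock protein Hspa1b (-1.35), a call lost without epithelial replicate 1 or wall replicate 1, 2 or 3 (adjusted p = 0.0795 to 0.102). How the epithelial cells were handled before lysis is given in no source used here, and its part in the other differences was not tested.

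The promoter of Egr2, an early response zinc finger factor, is shown because it too carries a CArG box. Egr2 had 106, 79.2, 2.54 and 103 CPM in epithelial cells and 1.49, 0.896, 1.04 and 0.909 CPM in wall (log2 fold change 6.06 ± 0.92, adjusted p = 0.000683). The window, for 1 of 5 RefSeq start sites of the gene, lies on the plus strand of chr10:67537316-67537615 (GRCm38.p6), with the box in capitals.
Egr2: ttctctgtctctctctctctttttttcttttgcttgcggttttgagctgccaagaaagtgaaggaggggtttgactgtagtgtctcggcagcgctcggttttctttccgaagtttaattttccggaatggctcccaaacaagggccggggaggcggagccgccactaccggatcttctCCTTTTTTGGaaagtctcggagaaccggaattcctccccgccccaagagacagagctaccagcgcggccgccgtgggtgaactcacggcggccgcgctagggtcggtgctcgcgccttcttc
The box starts 72 bases before the gene start in Egr2 and 161 bases before it in Myl9. It was present in 2 of 15 immediate early and heat shock genes with a window, 13.3%, and in 1.81% of all genes with one. Myl9 and Egr2 share this box and differed between the tissues in opposite directions.

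**Figure D5:**
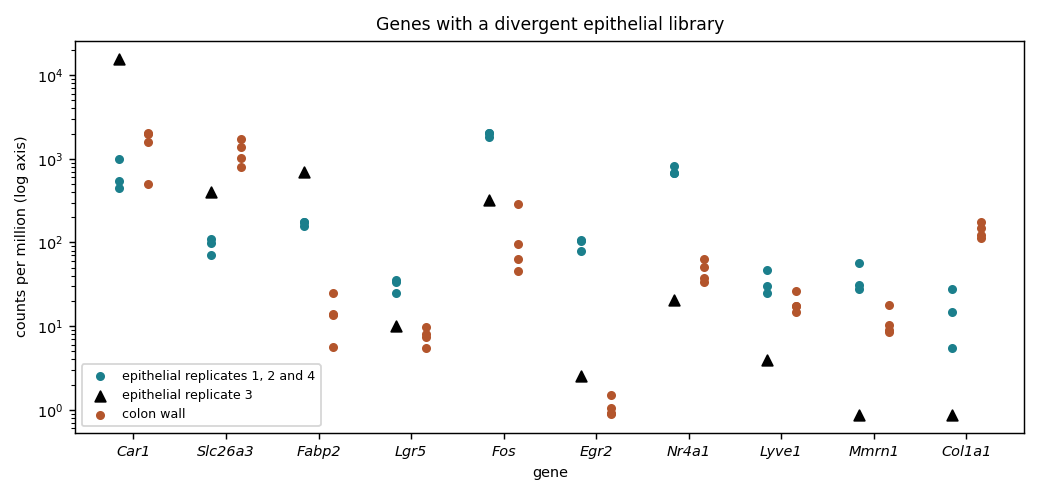
Level of 10 genes in CPM on a log axis (y) for each library, by gene (x axis). Triangles are epithelial replicate 3, circles are the other epithelial libraries and the wall libraries. In Fos, Egr2, Nr4a1, Lyve1 and Mmrn1 the triangle lies far below the other epithelial libraries, and in Car1, Slc26a3 and Fabp2 it lies above them.

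Abundance was also read in TPM, the deposited transcript levels scaled for transcript length and library size, summed per gene. The 10 most abundant genes of epithelial cells were 1810030J14Rik, Clca3, Spink4, Retnlb, Agr2, Eef1a1, Ang4, Gm20594, Car1 and Klk1. 1810030J14Rik is the older name of Mptx1, a pentraxin of the intestinal mucosa, and it stood at 29286 ± 13777 TPM in epithelial cells, against 7547 ± 5672 TPM in wall (mean ± SD, n = 4 each). Spink4, a goblet cell peptide, stood at 15390 ± 4700.1 TPM in epithelial cells, against 2117 ± 1276 TPM in wall. Agr2, which folds mucin in goblet cells, stood at 11053 ± 3726 TPM in epithelial cells, against 2447 ± 719.9 TPM in wall. Car1 is among them through epithelial replicate 3, at 15760 CPM there and 451 to 984 CPM in the other epithelial libraries. Of these 10, Clca3, Spink4, Retnlb, Agr2 and Ang4 belong to the goblet cell list. The 10 most abundant genes of the wall were 2210415F13Rik, Eef1a1, 1810030J14Rik, Krt8, Gm9846, Tpt1, Lgals4, Fth1, Zg16 and Myl6. 2210415F13Rik stood at 4819 ± 5408 TPM in epithelial cells, against 24523 ± 7233 TPM in wall. Myl6, a myosin light chain, was lower in epithelial cells in the count test (log2 fold change -1.21 ± 0.27, adjusted p = 0.00632). Krt8, Lgals4, Fth1 and Zg16 were called lower in epithelial cells without epithelial replicate 3, with Lgals4, an epithelial galectin, at a log2 fold change of -0.90, adjusted p = 0.00875, and Fth1, a ferritin chain, at -1.56, adjusted p = 0.000155. The call of 1810030J14Rik, higher in epithelial cells, was lost without wall replicate 1 or 3 (adjusted p = 0.0565 to 0.059), and Tpt1, a growth-related protein, was called lower without wall replicate 4 (log2 fold change -0.51, adjusted p = 0.0252).

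The same tissue contrast was read in the 8 untreated libraries of VilCre-CMVcaNrf2 mice, which carry in addition a transgene for constitutively active Nrf2, and which share no library with the control contrast. There 2695 of 14506 genes were higher in epithelial cells (18.6%) and 2866 were lower (19.8%). Of 5339 genes called in control mice and tested there, 5218, or 97.7%, had the same sign. Calls with the same sign in both made up 70.6% of the transgenic calls and 72.7% of the control calls. The smooth muscle median was -7.31 in transgenic tissues and -7.91 in control tissues, and the goblet median was 2.08 in transgenic and 2.20 in control tissues. Hoxd13 and Hoxb8 had log2 fold changes of -8.62 and 6.18 there, and Fos had 4.38. In a fit of all 16 libraries, no gene of 15073 passed for a difference of the tissue contrast between genotypes by edgeR (lowest adjusted p = 0.161, 1203 genes, 7.98%, at an unadjusted p below 0.05), and DESeq2 called 79. On simulated data with 200 changed genes, this edgeR test recovered 14% of 2-fold and 67% of 4-fold changes. Most differences near 2-fold between genotypes could therefore have been missed.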

How the data were processed

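RNA sequencing data of 24 colon libraries were used as deposited. Per the submitters' processing notes the authors used FastQC, RSEM 1.2.11 and the mm10 build; no source used here names the aligner. Each file holds 30383 transcripts with RSEM expected counts and TPM, both deposited by the authors. Expected counts split reads shared between transcripts, so they need not be whole, and near-identical genes can trade counts. Across the 24 libraries, 19.9 to 56.7% of a file's transcript counts were not whole. Counts were summed to 23329 gene symbols and rounded; TPM were summed.

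edgeR 4.0.16 in R 4.3.3 was used with TMM scaling, its filter at a minimum count of 10, the quasi-likelihood test and Benjamini-Hochberg adjustment, on the 8 control libraries. TPM were not tested except as log2(TPM + 1) in limma 3.58.1. DESeq2 1.42.0 was an alternative, as were other scalings, filters, depths, library sets, a replicate block and leaving out each library. The fit was tested on simulated data with 200 changed genes, and 2.3% of its calls were false. Intervals and floors cover counting error only. Tables were made with Python 3.11.15.

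The libraries and all 48 gene lists were chosen with earlier results of these data known. Named genes were the 12 with the largest fold change each way (at least 10 CPM in the higher group, groups not overlapping), the 10 most abundant by TPM in each group, up to 4 abundant members per list with those against the list's side, members of ligand and receptor lists, and 7 tissue markers. A further marker and 4 list members are not reported here. Genes named outside this rule, among them Myl9, Egr2, Atp12a and other members given for a list's call, were chosen after their values were seen. The series text states triplicates, whereas 4 libraries per group were used.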

Additional observations from a re-analysis of the deposited data

Results flagged for a closer look

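Within each group of 4 libraries, the highest or lowest library was set against the others by Dixon's criterion, which takes the gap to the nearest library as a share of the group's whole range. For independent values of a normal distribution, chance gives such an outlier in about 1 of 20 groups, or 5%. CPM of genes that vary together need not follow this, and a gene read in only 1 library of a group always meets the criterion. The 5% is therefore a rough guide. The criterion was met in 89 of 558 tests of named genes and summed gene lists, 15.9%, and 50 of the 89 were in epithelial replicate 3. All values here are in CPM.

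Epithelial replicate 3 lay above the other 3 epithelial libraries in many genes of mature epithelium. For carriers, enzymes and adhesion genes of surface cells its values were 15760.2 for Car1, 530 for Car4, 397 for Slc26a3, 700 for Fabp2, 157 for Tmigd1, 9031 for 2210415F13Rik, 37.1 for Lama3, 130.5 for Mylk, 181 for Ceacam20, 49.3 for Alpi and 18.4 for Sis. For genes of the epithelium in general they were 1846 for Epcam, 1181 for Vil1, 8156 for Krt8, 1131 for Hnf4a, 107 for Lgr4, 358 for Erbb2, 351 for Erbb3, 6025 for Lgals4 and 3178 for Fth1. Of secretory genes it was high in mucus lectin, trefoil peptide and secretin, with 3059.8 for Zg16, 883 for Tff3 and 39.7 for Sct. Among the genes with the largest folds toward epithelial cells its values were 214 for Osta, 100.1 for Abca12, 65.1 for Ugt2b5, 164 for 1110032A04Rik, 138 for Isx, 116 for H2-T3 and 516 for Apol10a. It lay below the other epithelial libraries in early response genes, a ligand and a Notch receptor, with 320.1 for Fos, 141 for Egr1, 72.2 for Hbegf and 4.05 for Notch2.

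Summed lists showed the same library apart. It was highest at 31178 for absorptive colonocyte, 23079.6 for epithelial junction and keratin, 5744 for epithelial transcription factors, 682 for enteroendocrine cell, 8214 for butyrate oxidation and ketogenesis, 13809 for oxidative phosphorylation and 9264 for xenobiotic metabolism genes. It was also highest at 584 for enteric glia, 223 for adipocyte and 16.5 for intraepithelial lymphocyte and cytotoxic genes. It was lowest at 588 for crypt stem and Wnt target, 2025 for immediate early and heat shock (tissue handling), 103 for Hedgehog receptors and targets, 125 for Notch pathway, 13.4 for enteric neuron and 4.52 for red blood cell genes.

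Other epithelial libraries were outlying in fewer values. Replicate 2 was highest for immune and stromal genes, with 209.5 for Igj, 1.73 for Cd4, 6.41 for Csf1r, 7.4 for Ptgs1, 0.576 for Rspo3, 0.0822 for Rspo2, 0.329 for S100b and 0.247 for Hoxd11, and with 233 for B and plasma cell genes as a sum. The value of Rspo2 rests on a single read. Replicate 4 was highest with 16.2 for Egf, 0.138 for Igfbp2 and 0.138 for 6330403A02Rik, the last 2 of which rest on single reads. Replicate 1 was highest with 0.0863 for Chrdl2, a single read, and with 263 for mesothelium and 7.51 for squamous epithelium genes as sums.

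Among wall libraries, replicate 2 was highest with 54 for Cdx2, 67.9 for Ang4, 56.8 for Retnlb, 1.92 for Pou2f3, 0.384 for H2-T3, 137 for Lama5, 81.8 for Cfd and 10.7 for Pdpn, and with 411 for adipocyte genes as a sum. Replicate 2 was lowest with 0.213 for Gzmb, 0.939 for Wnt6 and 0 for Ugt2b5. Replicate 4 was highest with 42.7 for Gas1, 38.1 for Hbegf, 20.1 for Hoxa13, 19.3 for Pln, 0.857 for Pla2g4c, 0.0087 for Abca12, 3.37 for Dkk2, 24 for Dll1 and 15.1 for Foxf2, and lowest with 6588 for Eef1a1 and with 14709 for cytosolic ribosomal protein genes as a sum. Replicate 3 was highest with 0.103 for Reg3b. The wall value of Abca12 rests on a single read.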

How the results depend on the processing

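Of 4815 fold changes of 231 named genes recomputed under planned and added alternatives, 4540 kept their direction and their side of the threshold, 177 lost the call, 60 gained it and 38 turned in direction. The count of 5464 genes called (2304 higher and 3160 lower in epithelial cells) was 9748 with limma voom and library quality weights (4502 higher, 5246 lower, and 1524 higher by more than 1 log2 unit) and 2232 when tested against a 2-fold change (443 higher, 1789 lower). Leaving out both epithelial replicate 3 and wall replicate 4, an alternative chosen after seeing the data, gave 8270, of which 3747 were higher. Leaving out 1 library at a time gave 4136 to 7740 calls, 1561 to 3391 higher and 2575 to 4349 lower; by more than 1 log2 unit it gave 3067 to 4421, with 851 to 1374 higher and 2216 to 3047 lower. The highest of these totals was without epithelial replicate 3. In the transgenic tissues the range was 4049 to 7090, and for the difference between genotypes 0 to 12, where DESeq2 called 79. With all 24 libraries in the fit 29.8% of calls were higher in epithelial cells, against 42.2% in the 8-library fit, with a shift of the median of -0.13. Other scalings, filters, thinning to the smallest library, DESeq2 and log2(TPM + 1) in limma kept the count within 1.5 times. Of 1008 list medians 57 moved by more than the criterion, 17 of them with log2(TPM + 1).

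Direction turned for 6 genes that had no call in the 8-library fit. For Vil1 the log2 fold change was -0.46 with voom (adjusted p = 0.00523), -0.45 without epithelial replicate 3 and wall replicate 4 (adjusted p = 0.00657), -0.14 with 24 libraries, -0.054 with upper quartile scaling, -0.049 with log2(TPM + 1), -0.03 thinned, -0.019 with no filter, -0.011 with total counts, -0.009 with at least 1 CPM in 4 libraries, -0.088 with the replicate block, and -0.38 to 0.13 leaving out 1 library. For Car1 it was -1.30 with voom (adjusted p = 0.0306), -1.20 without those 2 libraries, -0.046 with the replicate block and -1.21 to 1.92 leaving out 1 library. For Eef1a1 it was -0.064 with 24 libraries, -0.017 without those 2 libraries, -0.005 with voom and -0.048 to 0.15 leaving out 1 library. For Gm9846 it was 0.045 with 16 libraries, 0.074 with log2(TPM + 1), 0.04 with the replicate block, 0.026 with total counts and -0.21 to 0.10 leaving out 1 library. For Ihh it was -0.054 with 24 libraries and -0.27 to 0.53 leaving out 1 library. For Erbb2 it was -0.38 with voom (adjusted p = 0.0218), -0.35 without those 2 libraries (adjusted p = 0.0179), -0.028 with 24 libraries, -0.052 with the replicate block, -0.001 with log2(TPM + 1) and -0.40 to 0.26 leaving out 1 library. Except for these removals, the cause was not tested.

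The groups share replicate numbers, but same-numbered libraries deviated together with correlations of -0.11, 0.00, 0.29 and 0.11, so the numbers were not taken to pair them, and number 3 alone had its own number as the best match in both groups. With the replicate block 5233 genes were called. Epithelial libraries held 6683803 to 14291452 counts, which limits what can be said of genes near 1 CPM.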
